A study of Mus musculus with 16 samples.

Results

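Transcripts of 9 genes that let blood cells home, adhere and migrate were followed through 16 bulk RNA libraries of mouse leukaemia cells from bone marrow (BM) and the central nervous system (CNS). The 9 genes were taken by symbol from a list and found by Ensembl identifier among 55414 gene identifiers in the table. They are the chemokine receptors Cxcr4 and Ccr7, the selectin ligand Selplg, the integrin α chains Itga4, Itga6 and Itgal, the integrin β chains Itgb1 and Itgb2, and the hyaluronan receptor Cd44. The rule that names them uses no measured levels, but the genes were chosen with earlier results of these data known.

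All libraries carried the genotype miR-128a overexpressing Kmt2a-AFF1+, in mice that model the pro-B acute lymphoblastic leukaemia of infants. Leukaemia-propagating cells (LPC), those held to renew the disease, were freshly sorted from BM or CNS. The LSK cells were Lin- Sca1+ cKit+ IL7R+, and the LK cells (LK/CLP in the labels) were Lin- Sca1- cKit+. There were 4 libraries in each of 4 groups: BM LSK, BM LK, CNS LSK and CNS LK. Since the fusion and the overexpression were shared by all groups, no library served as a control for either. The labels give no age or sex and no statement that replicates came from separate animals, so the p-values measure only the spread between these samples. In the sample descriptions, the BM and the CNS library of a given number and LPC type share a code, here called a stem. There were 8 stems (LSK 1 to LSK 4 and LK 1 to LK 4), and what a stem stands for is not said in the labels.

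Leukocytes leave the blood and enter tissue in steps. Selectins catch glycan-bearing ligands such as PSGL-1 (Selplg) or glycoforms of CD44 and slow the cell down. Chemokines then signal through receptors such as CXCR4 and CCR7, which switches integrins to a state that binds firmly. An integrin is a pair of an α and a β chain: α4 with β1 makes VLA-4, the receptor for VCAM-1 and fibronectin, α6 with β1 makes a laminin receptor, and αL with β2 makes LFA-1, the receptor for the ICAMs. CXCR4 and its ligand CXCL12 hold haematopoietic cells in the marrow. CCR7 and α6 integrin have each been described in the entry of acute lymphoblastic leukaemia cells into the CNS, and CD44 binds the matrix sugar hyaluronan.

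The libraries held 19.2 to 29.2 M counts (M, mega). Of 14 pro-B marker genes, 6 reached a mean of 1 CPM (counts-per-million): Rag1, Dntt, Il7r, Cd72, Blnk and Cd79a, the last at 1.03 CPM and Blnk at 1.10 CPM. The defining B-lineage genes Pax5 and Ebf1 were nearly absent, at mean levels of 0.593 and 0.667 CPM. The labels name the sorted cells LSK or LK/CLP, and pro-B is the leukaemia that the mice model. Of 15 T and NK cell markers, 7 reached 1 CPM, among them Cd247 at 112 CPM and Trbc1 at 48.3 CPM, while Cd3e stood at 0.276 CPM. Myeloid cells were represented by 2 of 14 markers, microglia by 3 of 12, endothelium by 2 of 10, stromal and neural cells by 4 of 14, and erythroid and megakaryocytic cells by 2 of 12. No marker was at 0 in all 16 libraries. Olfactory and vomeronasal receptor genes, 1736 genes that most tissues keep silent, took 181 to 608 CPM in all, with the CNS library above the BM library in 7 of 8 stems. This sum is used as an index of background reads, and it moved with the niche. It also tended to be higher in LSK than in LK, with overlapping ranges. In BM it ran from 181 to 468 CPM in LSK and from 195 to 279 CPM in LK. In CNS it ran from 417 to 608 CPM in LSK and from 221 to 535 CPM in LK.

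The microRNA that all these cells overexpress recognises targets through its seed, bases 2 to 8 of the mature strand. MiR-128a is the older name of the product of Mir128-1. Its mature sequence in the RefSeq table is shown because the 3′ untranslated regions (3′ UTRs) of 2 members hold the match to its seed, which is in capitals.
mmu-miR-128-3p: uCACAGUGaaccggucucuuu
Itga4 site: tgttactatctCACTGTGaagtctgagatt
Itgb1 site: gtgttgggaggCACTGTGaatgtagcacag
In the sites, capitals mark CACTGTG, the letters complementary to the seed, with flanking bases from GENCODE M21 transcripts of build GRCm38. The match lies at base 2231 of the 6508-base 3′ UTR of Itga4 and at base 1095 of the 2526-base 3′ UTR of Itgb1. The letters occur in 20.4% of 21153 genes with a 3′ UTR. Among genes whose 3′ UTR is within 20% of the same length, the share is 58.2% for Itga4 and 33.5% for Itgb1. The other 7 members have no match. A match of letters is a description, and since every library carries the overexpression, no comparison here bears on it.

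Levels were compared between genes as CPM per kb of exon. The length was that of all annotated exons of a gene merged, 4272 bases for Selplg and 13978 for Itga4. This can exceed the length of the transcript present, so the order of genes depends on it. Cxcr4 was highest at 31.9 ± 4.93 CPM per kb (SD, n = 16 libraries). Below it came Selplg at 25.2 ± 4.14, Itga4 at 21.9 ± 3.13 and Itgb1 at 17.9 ± 1.61 CPM per kb. The leukocyte chains Itgb2 at 13.4 ± 2.16 and Itgal at 11.6 ± 2.47 CPM per kb followed, then Cd44 at 7.36 ± 1.10 CPM per kb. Thus the chains of VLA-4 stood above the chains of LFA-1 on this scale. Itga6 was far lower, at 1.34 ± 0.208 CPM per kb, and Ccr7 lowest of all, at 0.259 ± 0.106 CPM per kb.

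Neighbours from Cxcr4 down to Cd44 had overlapping ranges, and the order held in 12 to 16 of the 16 libraries for each pair of neighbours. The closest neighbours were Selplg and Itga4, with Selplg higher in 12 libraries, and Cxcr4 and Selplg, with Cxcr4 higher in 13. Itga6 lay below Cd44, and Ccr7 below Itga6, in 16 of 16 libraries with ranges that did not overlap. Ccr7 rested on 4 to 20 counts a library. The olfactory and vomeronasal receptor genes averaged 0.0646 CPM per kb (0.0317 to 0.107), and at that density background reads would make 24.9% of the Ccr7 level, 4.82% of Itga6, 0.878% of Cd44 and less for the others. The CNS LK libraries 2 and 3 had Ccr7 at 0.169 and 0.172 CPM, inside the band of those receptor genes in the plot of levels per exon length.

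**Figure D1:**
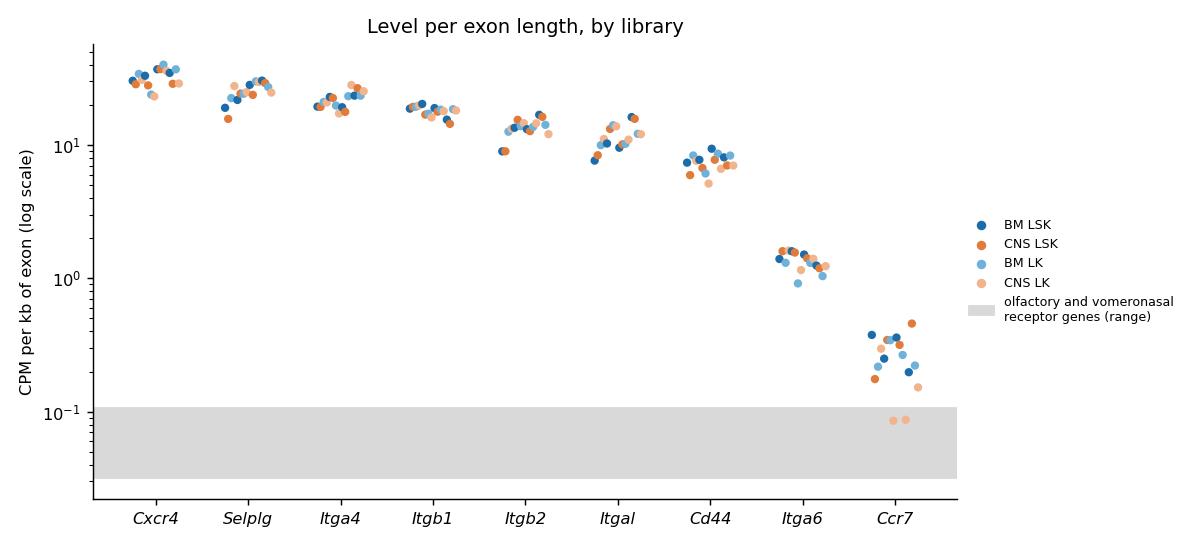
Level of each gene in CPM per kb of exon (log axis), with a point for each of the 16 libraries coloured by group and the range of the olfactory and vomeronasal receptor genes in grey. Cxcr4, Selplg and Itga4 sit at the top, Itga6 lies near 1.34, and Ccr7 reaches down into the grey band in 2 CNS LK libraries.

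Whether a gene differed between the niches was asked with edgeR's quasi-likelihood test over both LPC types, on 18878 genes, with Benjamini-Hochberg adjustment at 0.05 (a gene past it is said to be called). None of the 9 members was called, and 0% of all genes tested were. At an unadjusted p under 0.05 stood 1 of 9 members, Cd44, against 9.15% of all genes. The median log2 change of the members, CNS minus BM, was −0.03, and that of all genes 0.00. With the stem as a block, which compares the CNS and the BM library within each stem, 1 of 9 members was called, again Cd44, against 0.667% of all genes (126 genes, 72 of them, 0.381% of those tested, lower in the CNS). The pairing of stems was clear only among well-counted genes (mean of at least 50 counts), which include every member but Ccr7. For each of these members the block lowered the standard error (SE) of the niche change, for Cxcr4 from 0.10 to 0.046. For Ccr7 the SE rose, from 0.30 to 0.35. The fit without the block was the planned one and is kept as the primary result, because the stems are not identified. The blocked value is given where it changes a call.

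Cd44, the hyaluronan receptor, was lower in the CNS library of every stem. In the LSK stems 1 to 4 its level went from 49.9, 52.4, 63.5 and 54.7 CPM in BM to 40.2, 45.5, 52.5 and 47.6 CPM in CNS. In the LK stems 1 to 4 it went from 56.5, 41.4, 58.3 and 56.4 CPM in BM to 51.5, 34.8, 44.9 and 47.5 CPM in CNS. All 8 stems moved down, but the BM and CNS groups overlapped, because BM LK 2 was lower than most CNS libraries and CNS LSK 3 was above BM LSK 1. Within stems the difference ran from −0.38 to −0.13 on the log2 scale. Of all genes tested, 1.45% were lower in the CNS in 8 of 8 stems.

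The fitted change of Cd44 was −0.25 (log2, SE 0.086), with an edgeR adjusted p of 0.393 without the block. With the stem as a block the change was again −0.25 (SE 0.041) and the adjusted p was 0.00462. It held without each stem in turn, from −0.27 to −0.23 with edgeR adjusted p from 0.00868 to 0.0242. With the background index added to the blocked fit the change was −0.24, its adjusted p rose to 0.201, and the call was lost. That fit called 19 genes in all. The index was itself higher in the CNS in 7 of 8 stems, and its part in the Cd44 result was not tested beyond this. The size was alike in both LPC types: −0.25 in LSK and −0.25 in LK, with edgeR adjusted p of 0.855 and 1.00 without the block and 0.132 and 0.161 with it. Without CNS LK 2 the LK value was −0.15. The interaction of niche and LPC type for Cd44 was 0.00 (log2, SE 0.17), which leaves room for a difference of that order.

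In bulk RNA, fewer cells carrying a transcript and less of it in each cell cannot be told apart. The summed levels of the cell type markers differed from list to list in how they ran between niches. Myeloid markers summed to 3.33 to 35.2 CPM in BM LSK, 8.39 to 36.4 in CNS LSK, 4.83 to 21.4 in BM LK and 8.21 to 34.4 in CNS LK, and were higher in the CNS in 5 of 8 stems. Endothelial markers were higher in the CNS in 7 of 8 stems, microglial and pro-B markers in 6 and stromal and neural markers in 3. T and NK cell markers were higher in the CNS in 4 of 8 stems, as were erythroid and megakaryocytic markers. The endothelial sums were only 1.87 to 9.27 CPM and the microglial sums 5.76 to 9.95 CPM. Most markers of both lists were under 1 CPM, where all tested genes had a median change of 0.28 (CNS minus BM, log2). With the stem as a block, 2 markers were called between niches, each in the same direction in 8 of 8 stems. Dntt of the pro-B list was at 0.97 (log2, edgeR adjusted p 9.98e-06) and Pdgfrb of the stromal list at −0.58 (edgeR adjusted p 0.0031). In that fit the 6 tested stromal and neural markers had a median change of 0.09, opposite to Pdgfrb. The 9 tested pro-B markers had a median of 0.43. The part of these markers in the niche differences was not tested.

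**Figure D2:**
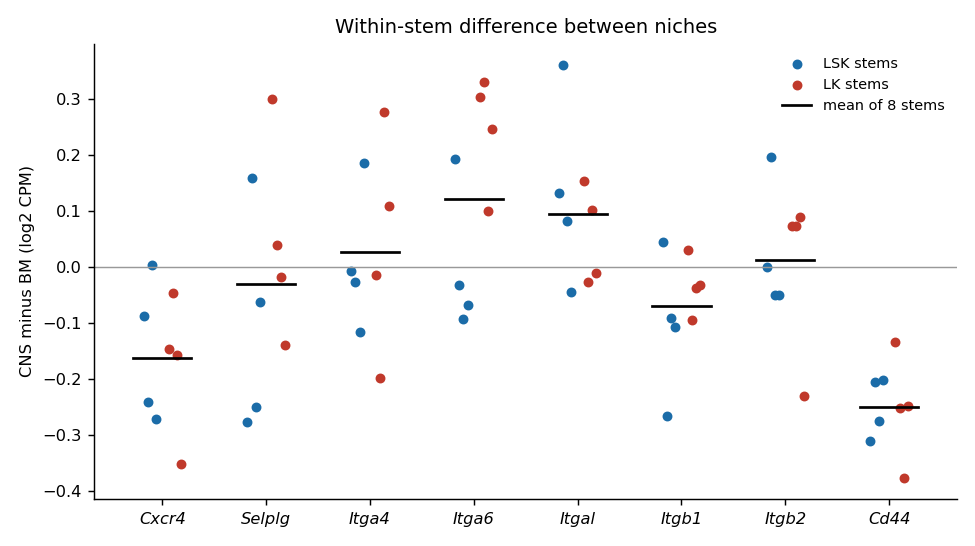
Difference in log2 CPM between the CNS and the BM library of each stem (points, LSK stems in blue and LK stems in red) for 8 genes, with the mean of 8 stems as a bar. Ccr7 is left out because of its low counts. All points of Cd44 lie below 0, 7 of 8 of Cxcr4 do, and the other genes lie on both sides of 0.

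Cxcr4, the receptor for the marrow-retention chemokine CXCL12, leaned the same way as Cd44 without being called. Its levels in LSK stems 1 to 4 were 54.8, 59.7, 66.8 and 62.7 CPM in BM and 51.6, 50.6, 67.0 and 52.0 CPM in CNS. In LK stems 1 to 4 they were 61.7, 43.1, 72.3 and 66.7 CPM in BM and 55.7, 41.8, 64.9 and 52.3 CPM in CNS. The CNS library was lower in 7 of 8 stems, LSK 3 being level, and the groups overlapped widely. Of all genes, 6.64% were lower in the CNS in at least 7 of 8 stems. The fitted change was −0.16 (log2, SE 0.10), with an edgeR adjusted p of 0.664 without the block and 0.126 with it.

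Cxcr4 and Cd44 also rose and fell together across libraries, with a Pearson's r of 0.845 over the 16 libraries. This is a description only, since libraries share stems and depth. The 250 bases upstream of each RefSeq start (build GRCm38.p6) are shown because the promoters of this pair look unlike each other. Both are printed 5′ to 3′ on the minus strand, where the genes lie, and capitals mark motif matches.
Cxcr4 promoter (chr1:128592300-128592549): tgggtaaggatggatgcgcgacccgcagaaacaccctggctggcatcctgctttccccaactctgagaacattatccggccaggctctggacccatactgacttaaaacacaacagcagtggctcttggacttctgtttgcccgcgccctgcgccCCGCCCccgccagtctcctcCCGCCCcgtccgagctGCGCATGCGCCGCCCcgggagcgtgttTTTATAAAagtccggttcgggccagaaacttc
Cd44 promoter (chr2:102901666-102901915): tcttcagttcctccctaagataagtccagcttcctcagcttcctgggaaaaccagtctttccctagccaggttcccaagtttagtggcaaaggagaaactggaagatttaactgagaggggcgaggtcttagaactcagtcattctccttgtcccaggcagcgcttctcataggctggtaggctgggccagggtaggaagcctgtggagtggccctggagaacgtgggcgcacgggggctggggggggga
The motifs, searched on both strands, were the NRF-1 palindrome (the 10 bases that open the longest run of capitals in the Cxcr4 window), the GC box GGGCGG, the TATA box TATAAA and the AP-1 site TGANTCA. In the Cxcr4 window stood 1 NRF-1 palindrome, 59 bases upstream of the start, overlapping the nearest of 3 GC boxes at its edge. The same window held 2 TATA matches, on opposite strands and overlapping, 32 and 30 bases upstream. The Cd44 window held none of the 4 motifs. Among 27025 promoters of this length, 0.781% hold the palindrome, 32.9% a GC box, 13% a TATA match and 6.87% an AP-1 site. A promoter entry was found for 4 of the 9 members, and those of Itga4 and Itgb1 held 1 GC box each and no other motif. A match is no proof of use, and its absence says only that these letters are not in the window.

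Ccr7, a receptor for CCL19 and CCL21, was near the limit of detection. Group means were 0.585 ± 0.171 CPM in BM LSK, 0.640 ± 0.230 in CNS LSK, 0.519 ± 0.116 in BM LK and 0.307 ± 0.196 in CNS LK (SD, n = 4 each). Its stems went both ways, with the CNS library higher in 3 of 8, and its change between niches was −0.32 (log2, SE 0.30; edgeR adjusted p 0.810). Within LK the change was −0.79 (SE 0.43; adjusted p 1.00 by edgeR). The interaction of niche and LPC type was 0.92 (SE 0.59; adjusted p 1.00 by edgeR), so no difference in the niche change between LPC types was detectable at this depth. Leaving out a library moved the change over both LPC types between −0.55 (without CNS LK 1) and −0.22 (without CNS LSK 1), and the change within LK between −1.23 (without CNS LK 1) and −0.59 (without CNS LK 2).

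Selplg, the gene of the selectin ligand PSGL-1, did not separate the groups. In LSK stems 1 to 4 its levels were 81.1, 92.9, 121 and 130 CPM in BM and 66.9, 104, 101 and 124 CPM in CNS. In LK stems 1 to 4 they were 95.9, 103, 128 and 116 CPM in BM and 118, 106, 127 and 106 CPM in CNS. The CNS library was higher in 3 of 8 stems and lower in 5, and the groups overlapped. The fitted change was −0.03 (log2; edgeR adjusted p 0.980), and its sign turned, to 0.12, with the background index as a covariate.

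Itga4, the α chain of VLA-4, had the highest CPM of the members. Its group means were 297 ± 31.6 CPM in BM LSK, 301 ± 55.2 in CNS LSK, 305 ± 24.8 in BM LK and 320 ± 67.4 in CNS LK (SD, n = 4 each). Groups overlapped, and the change between niches was 0.04 (log2; edgeR adjusted p 0.954). Its partner Itgb1 ran at 74.9 ± 8.31, 69.7 ± 8.38, 74.9 ± 3.73 and 73.4 ± 6.20 CPM in the same order of groups. Itgb1 was the least variable member, and its change between niches was −0.07 (adjusted p 0.825 by edgeR).

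Itga6, whose protein pairs with β1 or β4 to bind laminin, was higher in the CNS library of each LK stem. In LK stems 1 to 4 its levels were 11.8, 8.26, 11.8 and 9.37 CPM in BM and 14.6, 10.4, 12.6 and 11.1 CPM in CNS. In LSK stems 1 to 4 they were 12.6, 14.4, 13.6 and 11.2 CPM in BM and 14.4, 14.1, 12.8 and 10.7 CPM in CNS. The LK groups still overlapped, and 3 of the 4 LSK stems were lower in the CNS. Neither the change within LK, 0.24 (log2, SE 0.14; edgeR adjusted p 1.00, and 0.665 with the stem as a block), nor the interaction, −0.24 (SE 0.19; edgeR adjusted p 1.00), was called. Without BM LK 2 they were 0.14 and −0.13, and without CNS LK 1 they were 0.15 and −0.14. Without CNS LSK 4 the interaction was −0.14. Over both LPC types the change was 0.12 (adjusted p 0.771 by edgeR).

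Itgal and Itgb2, the chains of LFA-1, told stems apart rather than niches. Itgal in LSK stems 1 to 4 stood at 50.1, 67.4, 62.6 and 106 CPM in BM and at 55.0, 86.6, 66.3 and 103 CPM in CNS. In LK stems 1 to 4 it stood at 65.5, 92.3, 67.1 and 79.6 CPM in BM and at 72.8, 90.6, 72.0 and 79.1 CPM in CNS. LSK 4 was highest and LSK 1 lowest in both niches. Itgb2 had its extremes in the same stems, at 27.3 CPM in both libraries of LSK 1 and at 51.3 and 49.6 CPM in the BM and CNS libraries of LSK 4. The change between niches was 0.08 for Itgal (log2; edgeR adjusted p 0.927) and 0.01 for Itgb2 (edgeR adjusted p 0.990).

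**Figure D3:**
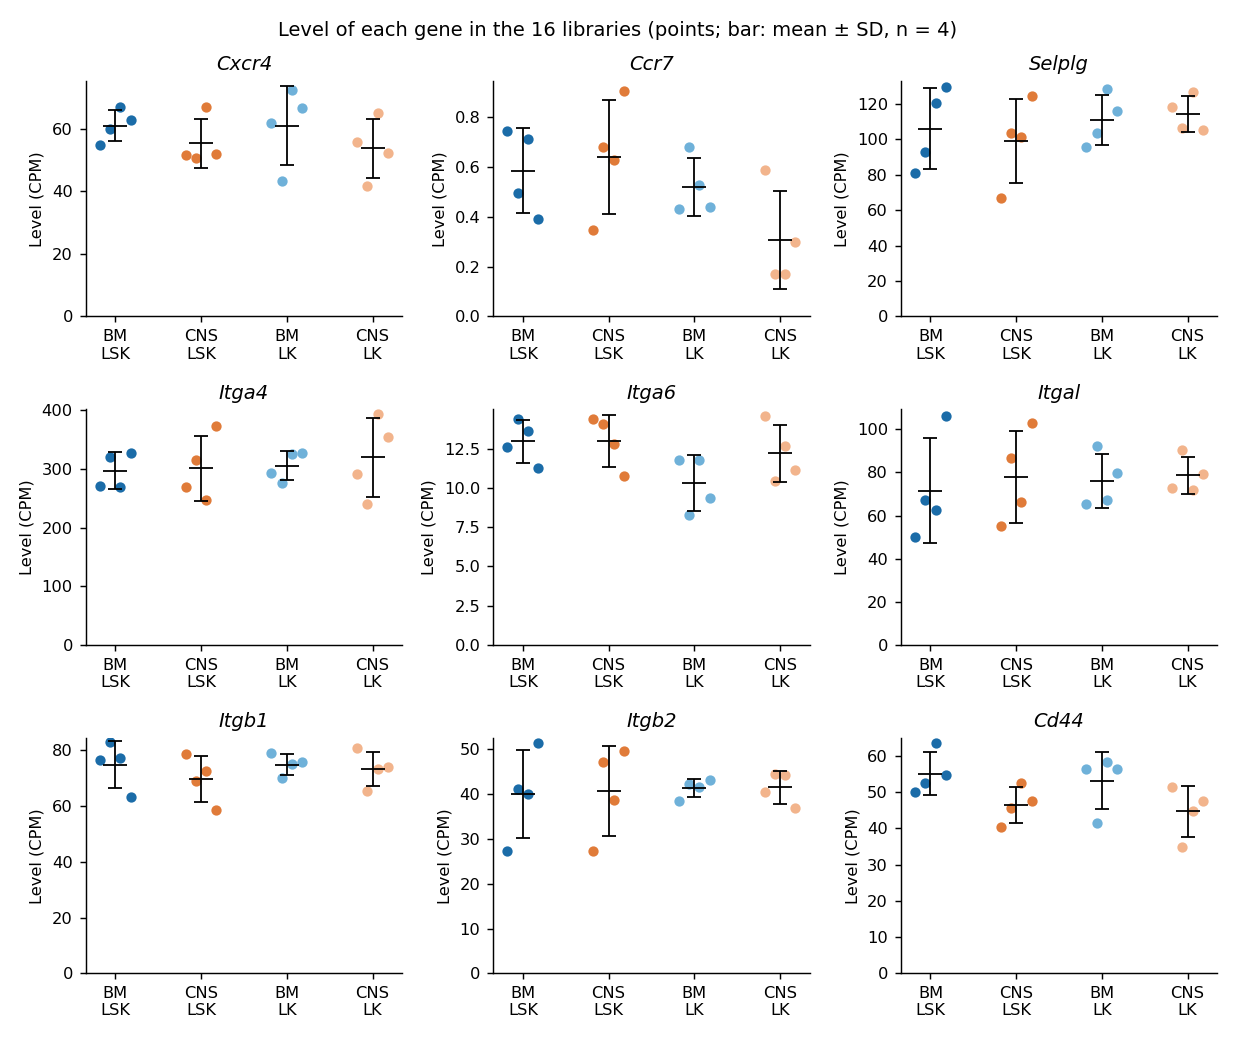
Level of each of the 9 genes in CPM in the 16 libraries (points), with the mean and SD of the 4 libraries of each group. For each gene the points of the 4 groups overlap, and Cd44, Cxcr4 and Itgb1 have lower means in both CNS groups than in the matching BM groups.

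How much of each gene's variance lay between stems was set beside the same share for 11828 well-counted genes (mean of at least 50 counts), whose median was 63.3% with quartiles of 49.6% and 75.3%. The shares were 94.0% for Itgb2, 93.2% for Itgal, 86.1% for Selplg and 85.9% for Itga4. They were 80.7% for Itgb1, 80.6% for Cxcr4 and 80.2% for Itga6. These 7 genes lay above the upper quartile. They had 231 to 10570 counts a library, and the set beside them was not matched for counts. The part of depth in their rank was not tested. Cd44, at 64.0%, lay near the median, and Ccr7, with its few counts, at 32.9%. Stem means spanned 1.99-fold for Itgal, 1.84-fold for Itgb2 and 1.73-fold for Selplg, against 1.31-fold for Itgb1. These shares are descriptions, and since a stem number sits within an LPC type they include any difference between LSK and LK.

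Among pairs of members, Itgal and Itgb2 had the highest Pearson's r over the 16 libraries, 0.853, followed by Cxcr4 with Cd44 and by Selplg with Itgb2 at 0.828. Itgal and Itgb1 ran opposite, at −0.791. Among 11640 well-counted genes, the patterns most like those of members belonged to Gimap1 for Itgb2 (r 0.953) and Grcc10 and Thy1 for Selplg (0.950 and 0.938). Wdr25 and Elf4 were most like Itgal (0.926 each), Gm6485 most like Cxcr4 (0.908), Aldh7a1 most like Itga6 (0.902) and Cep170 most like Itgb1 (0.881). Crip1 was among the genes most like Cd44 (0.846), and Ms4a4b and Taf6l were most like Itga4 (0.858) and Ccr7 (0.761). The 16 points share stems and library depth, so these values carry no test.

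Between the LPC types, LSK against LK over both niches, 0 of 9 members were called by edgeR, against 0.238% of all genes (45 genes, 43 of them higher in LSK). At an unadjusted p under 0.05 stood 2 of 9 members, Itga6 and Ccr7, against 12.1% of all genes. The LSK minus LK change of Itga6 was 0.22 (log2, SE 0.10), at an edgeR adjusted p of 0.387. In BM alone its LSK levels of 11.2 to 14.4 CPM overlapped the LK levels of 8.26 to 11.8 CPM, with a change of 0.33 (edgeR adjusted p 0.736), and in CNS the change was 0.10 (edgeR adjusted p 0.907). Ccr7 was higher in LSK by 0.62 (SE 0.30; adjusted p 0.411 by edgeR), and in CNS by 1.08 (adjusted p 0.744), on counts of 20 or fewer. Selplg stood at −0.13 (edgeR adjusted p 0.669), and the other 6 members between −0.06 and 0.06. With the title number as a block 0 of 9 members were called, against 0.858% of all genes.

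Within a single LPC type or niche, edgeR called none of the 9 members. The share of all genes called was 0% for CNS against BM in LSK, in LK, LSK against LK in BM, in CNS, and the interaction. At an unadjusted p under 0.05 were 0 of 9 members for the niches in LSK, 0 in LK, 1 for the LPC types in BM, 1 in CNS and 0 for the interaction. The matching shares of all genes were 5.74%, 3.99%, 6.38%, 6.58% and 1.49%. With the stem as a block, 0 of 9 members were called between niches in LSK, in LK or in the interaction, against 0.138%, 0.0636% and 0% of all genes. The DESeq2 alternative also called none of the members in any of these contrasts or in those over both LPC types or both niches.

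**Figure D4:**
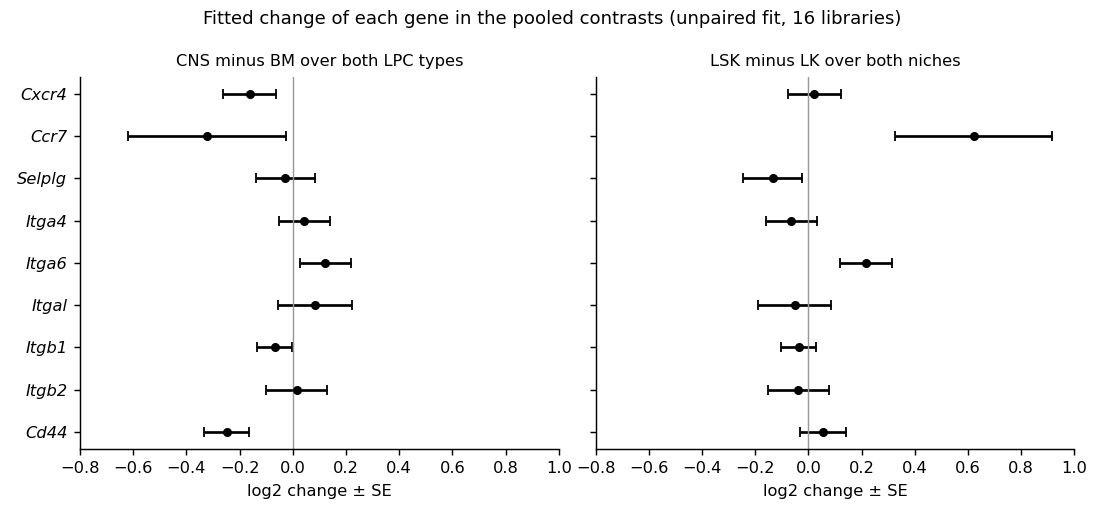
Fitted log2 change of each gene with its SE (bars), CNS minus BM over both LPC types at the left and LSK minus LK over both niches at the right, from the fit without a block. Cd44 lies at −0.25 in the niche comparison and Ccr7, with the widest error, at 0.62 in the LPC type comparison.

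The wider machinery was read from 10 lists of related genes. Without a block, and with a mean of at least 10 counts as the minimum, edgeR called no gene of any list in any of the 7 contrasts. When every gene with a count was tested, the unblocked fit called Tspan2 (edgeR adjusted p 0.000294), Itgb7 (0.00423), Cd63 (0.0151) and Flna (0.0225) lower in the CNS. It called Ackr3 (edgeR adjusted p 0.000469) higher in LSK. That setting also moved niche changes of well-counted genes downward. Cd44 went from −0.25 to −0.31, Flna from −0.23 to −0.29, and Tiam1 from 0.33 to 0.27 without being called. The part of this shift in the niche calls was not tested. With the stem as a block, 6 genes were called between niches over both LPC types, against 0.667% of all genes, each in the same direction in 8 of 8 stems. They were named after their values were seen, and the blocked fit favours genes that move alike within stems. The agreement of their stems is therefore no separate support. The lists of other chemokine receptors (10 of 21 tested), ligands of the members (15 of 22), selectin-ligand enzymes (9 of 12), membrane anchors and sheddases of CD44 and PSGL-1 (11 of 12), egress receptors (13 of 18) and other adhesion molecules (21 of 21) had none.

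The other integrin chains held 1 called gene among 19 tested of 22. At an unadjusted p under 0.05 between niches stood 10 of the 19 without the block, 6 of them among the 9 chains at a mean of 1 CPM or more, against 9.15% of all genes. The median change of the 19 was upward, at 0.49 (CNS minus BM, log2), whereas the called chain, Itgb7, went down. Itgb7, the β chain that pairs with α4 to bind MAdCAM-1, went in LSK stems 1 to 4 from 13.2, 22.4, 30.1 and 32.4 CPM in BM to 7.94, 18.3, 15.4 and 22.9 CPM in CNS. In LK stems 1 to 4 it went from 28.6, 23.8, 34.6 and 27.5 CPM to 24.3, 16.7, 26.7 and 15.3 CPM. Every stem was lower in the CNS, and the groups overlapped. The change was −0.55 (log2, SE 0.073; edgeR adjusted p 0.000729) with the block and had an adjusted p of 0.407 without it. Its partner chain Itga4 had a change of 0.04 in the fit without the block.

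Among 28 tested genes of integrin activation, of 30 listed, 1 was called. Flna, a filamin that links integrin tails to actin, fell with the block by 0.23 on the log2 scale (edgeR adjusted p 0.00881; 0.287 without it), from 293 to 359 CPM in BM to 246 to 321 CPM in CNS. Of 13 tested tetraspanins, membrane organisers that associate with integrins, 2 of 14 listed were called lower. Tspan2 changed by −0.40 (edgeR adjusted p 0.000168 with the block, 0.222 without) and Cd63 by −0.49 (adjusted p 0.0143 by edgeR with the block, 0.286 without). Tspan2 ran from 38.6 to 57.0 CPM in BM and from 28.3 to 42.5 CPM in CNS.

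Of 27 tested genes of chemokine receptor signalling, of 30 listed, 2 were called higher in the CNS. Tiam1, an exchange factor that activates RAC, stood at 38.4 to 46.6 CPM in BM and 47.0 to 59.5 CPM in CNS. It rose with the block by 0.33 on the log2 scale (SE 0.041; edgeR adjusted p 0.000325), with an adjusted p of 0.215 without the block. Pik3r5, a regulatory subunit of PI3-kinase γ, rose by 0.51 (edgeR adjusted p 0.00672 with the block, 0.359 without). With the background index added to the blocked fit, 1 of the 6 genes was called, Tspan2 at −0.41 (edgeR adjusted p 0.0114). The other 5 kept their direction with larger errors. In that fit Tiam1 stood at 0.30 (SE 0.059, adjusted p 0.0573), Pik3r5 at 0.58 (SE 0.12, adjusted p 0.0943) and Itgb7 at −0.39 (SE 0.086, adjusted p 0.105). Flna stood at −0.20 (SE 0.058, adjusted p 0.443) and Cd63 at −0.36 (SE 0.12, adjusted p 0.674). DESeq2 without a block called 4 of the 6: Tiam1 (adjusted p 0.00351), Tspan2 (0.0128), Flna (0.0369) and Cd63 (0.0428).

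**Figure D5:**
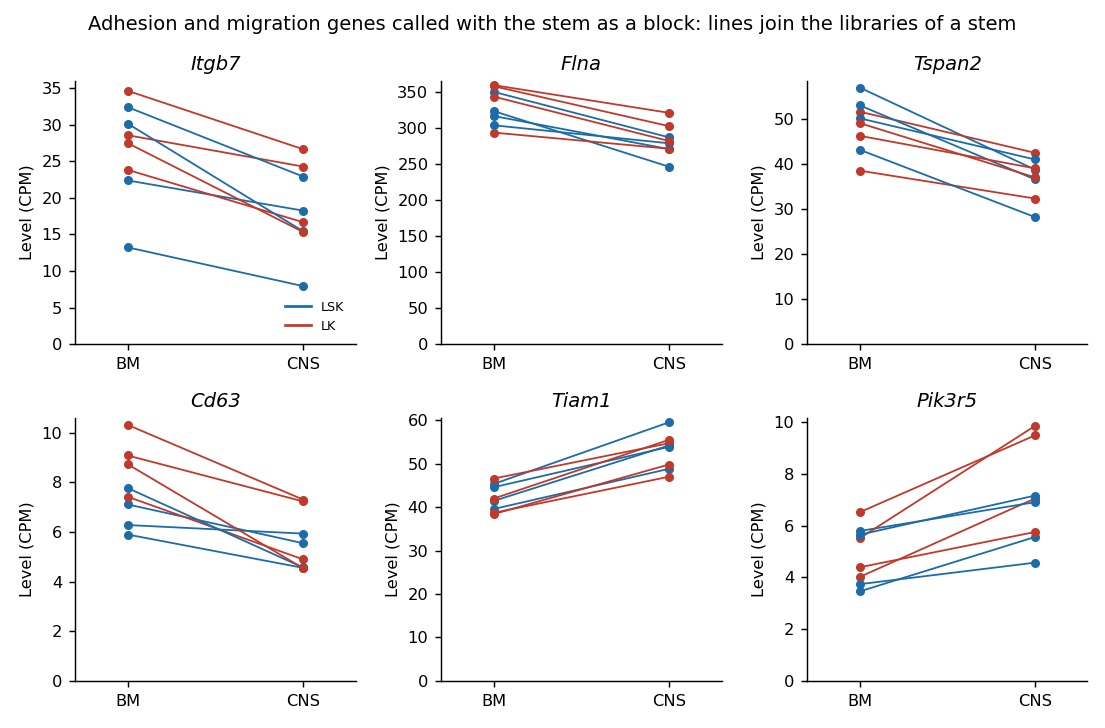
Level in CPM in the BM and the CNS library of each stem, joined by a line (LSK blue, LK red), for the 6 genes of the lists called with the stem as a block. Itgb7, Flna, Tspan2 and Cd63 slope down and Tiam1 and Pik3r5 slope up in 8 of 8 stems.

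Most chemokine receptors other than Cxcr4 were scarce, with 14 of 21 under a mean of 1 CPM. Ccr2, at 3.20 CPM, was the highest of the 21. Ackr3, an atypical receptor that takes up CXCL12, had the lowest p of the list between LPC types, with a change of 1.31 (LSK minus LK, log2; edgeR adjusted p 0.0734). Its levels were 1.26 to 3.99 CPM in the LSK libraries and 0.258 to 1.47 CPM in the LK libraries. The ranges overlapped only a little, and with the title number as a block it was called (edgeR adjusted p 0.0326). Without CNS LSK 2 it was called as well (adjusted p 0.0232 by edgeR). Because the LPC types differ between stems and each stem gave 2 libraries, counts were also summed per stem. In that fit Ackr3 was at 1.29 and was not called (edgeR adjusted p 0.239). With the background index as a covariate Ackr3 stood at 1.28 and was not called either (edgeR adjusted p 0.337). DESeq2 without a block called it (adjusted p 0.00269). Ccr4 had the lowest p between niches, at 0.62 (edgeR adjusted p 0.408) on a mean of 0.734 CPM.

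Of the members' ligands, 15 of 22 were under a mean of 1 CPM, including Cxcl12 (0.718 CPM) and Vcam1 (0.610 CPM), both products of stroma and endothelium. Icam2 (11.9 to 16.6 CPM) and Icam1 (7.63 to 13.7 CPM), whose proteins bind LFA-1, were present in each library. Lamc1, a laminin chain, had the lowest p of this list in both comparisons, at 0.72 between niches and 1.01 between LPC types (edgeR adjusted p 0.493 and 0.188), on 0.636 CPM. With the background index as a covariate these values were 0.26 and 0.56, and without BM LSK 3 the change between LPC types was 1.16 and was called (edgeR adjusted p 0.0460). With counts summed per stem that change was 0.88 and was not called (edgeR adjusted p 0.292).

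Among other integrin chains, Itga9 had 206 CPM (26.7 CPM per kb), a level per length near that of Selplg. Of the 22 chains, 13 were under a mean of 1 CPM. The 10 tested chains under 1 CPM had a median change of 0.59 (CNS minus BM, log2) and the 9 at or above it one of 0.13, beside 0.28 for all 4735 tested genes under 1 CPM and 0.00 for all genes. The background index was higher in the CNS as well, and its part in these medians was not tested. Itga2 had the lowest p between niches, at 0.94 (edgeR adjusted p 0.376), and stood at 0.56 with the index as a covariate. Itgax had the lowest p between LPC types, at 1.00 (edgeR adjusted p 0.190). Both were under 1 CPM.

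The enzymes that build selectin ligands were uneven. C1galt1, which extends core O-glycans, had 59.8 CPM, while Fut7, the fucosyltransferase of the selectin-binding cap, and Gcnt1, which branches core O-glycans, had 0.403 and 0.340 CPM. Fut4, a related fucosyltransferase, had 6.15 CPM and a change between niches of 0.26 (edgeR adjusted p 0.482). The GDP-fucose transporter Slc35c1 had a change between LPC types of −0.17 (edgeR adjusted p 0.370). Thus Selplg transcript was plentiful beside little Fut7 and Gcnt1 transcript.

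The remaining lists gave no call without a block. Ezr and Msn, which tether CD44 and PSGL-1 to actin, were abundant at 335 and 305 CPM. In their list, the protease gene Mmp14 had the lowest p between niches, at 1.13 (edgeR adjusted p 0.286) on 0.642 CPM, and Ank3 between LPC types, at 0.62 (adjusted p 0.317). With the background index as a covariate, Ank3 was at 0.03. Cd93, an adhesion receptor of progenitors and endothelium, had 180 CPM and a change of 0.22 between LPC types (edgeR adjusted p 0.243, 0.0334 with the title number as a block, and 0.489 with counts summed per stem). Cd22 had the lowest p of that list between niches, at 1.26 (edgeR adjusted p 0.387) on 0.609 CPM, and stood at 0.65 with the background index as a covariate.

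In the egress list, Ptger4, a prostaglandin receptor, stood at −0.30 between niches (edgeR adjusted p 0.505) and Plxnd1, a semaphorin receptor, by 0.39 between LPC types (edgeR adjusted p 0.327). The tetraspanin Cd151, a partner of laminin-binding integrins, stood at −0.42 between LPC types (edgeR adjusted p 0.176). Among the activators of integrins, Tln2 stood at −0.12 between LPC types (edgeR adjusted p 0.392). Grk3, a kinase that desensitises CXCR4, stood at 0.81 between LPC types (edgeR adjusted p 0.436) on 0.687 CPM. None of these values passed the threshold.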

How the data were processed

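RNA was measured in 16 sorted bulk libraries, 4 per group. Per the labels' protocols, RNA was extracted with a Zymo Quick-RNA Microprep kit and libraries were made with a SMARTer stranded total RNA kit for low input. The deposited file gives counts, as whole numbers, for 55414 Ensembl identifiers. Although named normalised, the deposited counts had median-of-ratios size factors from 0.794 to 1.29 and were treated as raw. Per the submitters' processing notes, GRCm39 and DESeq2 were used. The role of DESeq2, the aligner, the counter, the annotation and any use of strand or molecular identifiers are not given in the sources used here. Without them, overlapping genes cannot be told apart and counts are not independent molecules. All sample columns were matched to labels (0 unused). Identifiers without a symbol held 41.8% of counts and stayed in the library sizes.

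Genes with a mean of at least 10 counts (18878) were fitted in edgeR 4.0.16 (R 4.3.3) with TMM factors as 4 group means with no block, and 7 contrasts were tested by quasi-likelihood, two-sided, adjusted by Benjamini and Hochberg at 0.05. CPM is on TMM-scaled library sizes. Logarithms of CPM used a prior count of 2. Code was tested on simulated data. The 24 pairs of replicates had chi-square values of 8.64 to 34.5 per degree of freedom, above sampling noise, so none was counted as a duplicate.

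For each stem, both libraries' deviations from the group mean were correlated across genes. At a mean of at least 10 counts, 6 of 8 stems were over 0.1 (lowest −0.027, median 0.201), and at a mean of at least 50 counts 8 of 8 were (0.339 to 0.618). Blocked fits are therefore given beside the unblocked ones. Alternatives were median-of-ratios factors, other count minimums, DESeq2 1.42.0, identifiers with a symbol, the background index as a covariate, counts summed per stem, each library left out, and the stem or the title number as a block. The summed counts, the covariate in a blocked fit, and the blocked fits without a stem were added after seeing the data.

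The 9 members and the gene lists were chosen with earlier results of these data known. From each list were named the genes called in any contrast, or otherwise the gene with the smallest p in the niche and LPC type contrasts. The genes most like a member are those with the highest r among genes with a symbol and a mean of at least 50 counts. Exon lengths came from GENCODE M21 (GRCm38), another build than the authors', and were used for levels per kb only. P2ry8 and Cd99 had no match in the table. Values of a few listed or similar genes are not reported here.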

Additional observations from a re-analysis of the deposited data

Results flagged for a closer look

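In groups of 4 libraries, Dixon's test sets a library apart where its gap to the nearest other takes up nearly all of the group's range. Of 36 combinations of gene and group, 2 met this rule, where chance gives about 1.8. Cxcr4 in CNS LSK 3 had 67.0 CPM against 50.6 to 52.0 CPM in the other 3 CNS LSK libraries. The BM library of the same stem, at 66.8 CPM, was also the highest of its group. Cd44 in BM LK 2 had 41.4 CPM against 56.4 to 58.3 CPM in the other 3 BM LK libraries. The CNS library of that stem, at 34.8 CPM, was the lowest of its group as well.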

How the results depend on the processing

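Over the 9 members and named list genes, 54 changes were recomputed to 1278 values: 1211 kept their direction and their side of the threshold, 22 became calls and 45 reversed, 35 of those by leaving out a library. The number of members called between niches was 0, and was 0 without any 1 library, but 1 with the stem as a replicate block (Cd44). In the blocked fit it was 1 without each stem and 0 with the background index added. For the LPC types, each niche or LPC type alone and the interaction it was 0 in all settings run. The change of Cd44 between niches ran from −0.30 to −0.20 without a library.

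Small changes reversed. Between niches, Selplg was 0.12 with the background covariate and 0.049 with block and covariate, Itga4 was −0.015 with every gene that has a count and −0.038 with the covariate, and Itgb2 was −0.042 with every gene. Between LPC types, Cxcr4 was −0.034 with every gene, and with the covariate Itgal was 0.031, Itgb2 0.060 and Grk3 −0.064. The interaction of Cd44 was −0.015 with every gene. Leaving out a library gave, between niches, Itga4 −0.014 to 0.099, Itgb2 −0.056 to 0.090 and Selplg −0.084 to 0.047. Between LPC types it gave Cxcr4 −0.033 to 0.075, Itgal −0.18 to 0.016, Itgb1 −0.067 to 0.018 and Itgb2 −0.11 to 0.038, and for the interaction Cd44 −0.099 to 0.12 and Cxcr4 −0.064 to 0.19. The cause was not tested. The covariate also moved some values by over 1.5 times with no change of sign: between niches, Ccr4 to 0.39, Itga2 to 0.56, Itga6 to 0.074, Ptger4 to −0.20 and Itgb7 to −0.31, and between LPC types, Itgax to 0.60, Slc35c1 to −0.11 and Selplg to −0.019.

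Over all genes, niche calls were 0 as planned, 85 with every gene that has a count, 40 with DESeq2, 126 with the stem block and 78 to 147 with the block and a stem left out. LPC type calls were 45 as planned, 290 with every gene, 162 with the title number as a block, 222 with DESeq2, 6 with the covariate, 0 with counts summed per stem (1870 at an unadjusted p under 0.05, edgeR) and 15 to 138 without a library. Testing every gene put the median change of all genes at 0.15 between niches and 0.14 between LPC types. Niche changes of well-counted genes such as Cd44, Flna and Tiam1 moved downward in that setting. Title numbers paired libraries less clearly than stems: of 8 pairs, 4 were over 0.1 among genes averaging 10 counts or more and 6 among genes averaging 50 or more. Depth limits Ccr7, with 4 to 20 counts a library.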
